A study of Mus musculus with 16 samples.

Results

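The 7 complement genes C1qa, C1qb, C1qc, C3, Cfp, C3ar1 and C5ar1 were followed through macrophages and microglia sorted from mouse brains. They were taken by symbol from 18580 genes, after RefSeq transcripts had been mapped to mouse symbols and summed per gene, and all 7 had values in the tables. The mice were CD163KO mice (allele CD163tm1.1(KOMP)Vlcg) and their WT littermates on C57BL/6N, of both sexes. At 12 weeks of age they received murine α-syn into both striata, either as monomers (MONO) or as pre-formed fibrils (PFF), and cells were sorted 2 months later. Microglia were gated as CD11b+ with low or intermediate CD45. The cells gated as CD11b+ with high CD45 are called macrophages, as in the study, although the gate also admits neutrophils, NK cells and both infiltrating and border-associated macrophages. There was 1 library for each sex, genotype and treatment in either population (16 in all, from groups of 4 to 7 injected mice), and although the study's methods speak of triplicates for sequencing, whether a library pools them or is 1 of them is not given in the sources used here. The study left out the male CD163KO MONO libraries, so 14 libraries entered the tests and all 16 are described. Because 1 library was analysed here for each combination, each p-value measures the spread between libraries of different combinations.

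C1q starts the classical complement pathway and is built from the A, B and C chains encoded by C1qa, C1qb and C1qc, which microglia and tissue macrophages make in large amounts. C3 is the central protein that all pathways cleave, and properdin (Cfp) stabilises the convertase of the alternative pathway. C3ar1 and C5ar1 encode the receptors for the small fragments C3a and C5a, which steer myeloid cells, and complement is best known in the brain for tagging synapses and debris for uptake by microglia.

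The estimated counts of a library summed to between 8648751 and 21433841. Cd163 had 0 or 1 count in the 4 CD163KO macrophage libraries and between 748 and 5275 counts in the WT ones. In microglia Cd163 did not separate the genotypes, with 5 to 23 counts in the CD163KO libraries and 0 to 101 in the WT ones, so it does not check their genotype labels. Y-linked genes had 799 counts in the library labelled female CD163KO MONO microglia, against at most 2 in the other 7 female libraries and 350 to 6545 in the male ones, so its labelled sex is in doubt. Markers matched the 2 populations: the summed FPKM (counts scaled to transcript length and to assigned reads) of 12 microglia markers was 17736 to 43448 in microglia and 956 to 1877 in macrophages. Of 12 neutrophil markers, all were above 0 in every macrophage library, with a summed FPKM between 22113 and 134489, against 947 to 2706 in microglia with 9 to 12 markers above 0. The 10 border-associated macrophage markers summed to 1614 to 4671 in the macrophage libraries and to 28.2 to 167 in the microglia libraries.

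Both populations of 2 combinations stood apart, male WT PFF and male CD163KO MONO. The mean length of the transcripts, weighted by counts, was 2522 and 2550 bases in these macrophage libraries and between 1549 and 1803 in the other 6. In microglia it was 1916 and 2063 bases in these libraries and between 2805 and 2964 in the other 6. The macrophage libraries were thus longer and the microglia libraries shorter than the rest of their population. The study kept male WT PFF, so results for the 7 genes are given with and without it where it changed them.

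The 3 C1q genes lie side by side on chromosome 4 (GRCm38.p6, a patch release of the build also called mm10), with C1qb at chr4:136880126-136886200, C1qc at chr4:136889801-136892936 and C1qa at chr4:136895916-136898844. RefSeq promoter windows were at hand for C1qb and C1qc. The 250 bases before each start are shown because these neighbouring genes varied together, and both are read on the minus strand, from chr4:136886201-136886450 and chr4:136892915-136893164. The last 22 bases of the C1qc window fall inside the annotated span of the gene. Capitals mark matches, on either strand, to a core of PU.1 sites (GAGGAA), a C/EBP site (TTNCNNAA), an AP-1 site (TGACTCA), part of a MAF site (TGCTGA) or a TATA box (TATAAA).
C1qb: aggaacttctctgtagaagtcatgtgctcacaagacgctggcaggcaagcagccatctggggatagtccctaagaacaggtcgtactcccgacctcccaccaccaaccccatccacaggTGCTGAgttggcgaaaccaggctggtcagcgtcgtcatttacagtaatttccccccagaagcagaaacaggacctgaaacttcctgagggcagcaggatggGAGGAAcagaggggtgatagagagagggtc
C1qc: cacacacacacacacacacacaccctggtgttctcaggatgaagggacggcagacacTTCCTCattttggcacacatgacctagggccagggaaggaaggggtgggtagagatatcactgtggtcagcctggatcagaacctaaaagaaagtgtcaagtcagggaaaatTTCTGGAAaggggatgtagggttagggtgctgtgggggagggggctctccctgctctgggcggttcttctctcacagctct
Both windows held a GAGGAA match, which began 30 bases before the start in C1qb and, on the opposite strand, 193 bases before it in C1qc. GAGGAA was found in 23.3% of the 32851 windows of this length. The C1qb window also held a TGCTGA match, as did 16.1% of all windows, and the C1qc window a TTNCNNAA match, as did 36.8%. These matches describe letters and not bound sites.

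C1q transcripts were among the most abundant in both populations. The 3 chains together took between 1.04% and 2.62% of the counts of a macrophage library, and between 1.69% and 6.35% of those of a microglia library. In the 8 macrophage libraries, the FPKM of C1qa ranged from 1891 to 3412 (median 2638), of C1qb from 3879 to 15030 (median 9888) and of C1qc from 3533 to 7877 (median 6368). In the 8 microglia libraries, C1qa ranged from 3319 to 8822 (median 6321), C1qb from 8862 to 40767 (median 11541) and C1qc from 4549 to 15379 (median 8141). The libraries of the populations overlapped for every chain. The libraries with the most C1qb were microglia of male WT PFF (40767) and male CD163KO MONO (32280), and those with the least were macrophages of the same combinations (3879 and 4060).

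**Figure D1:**
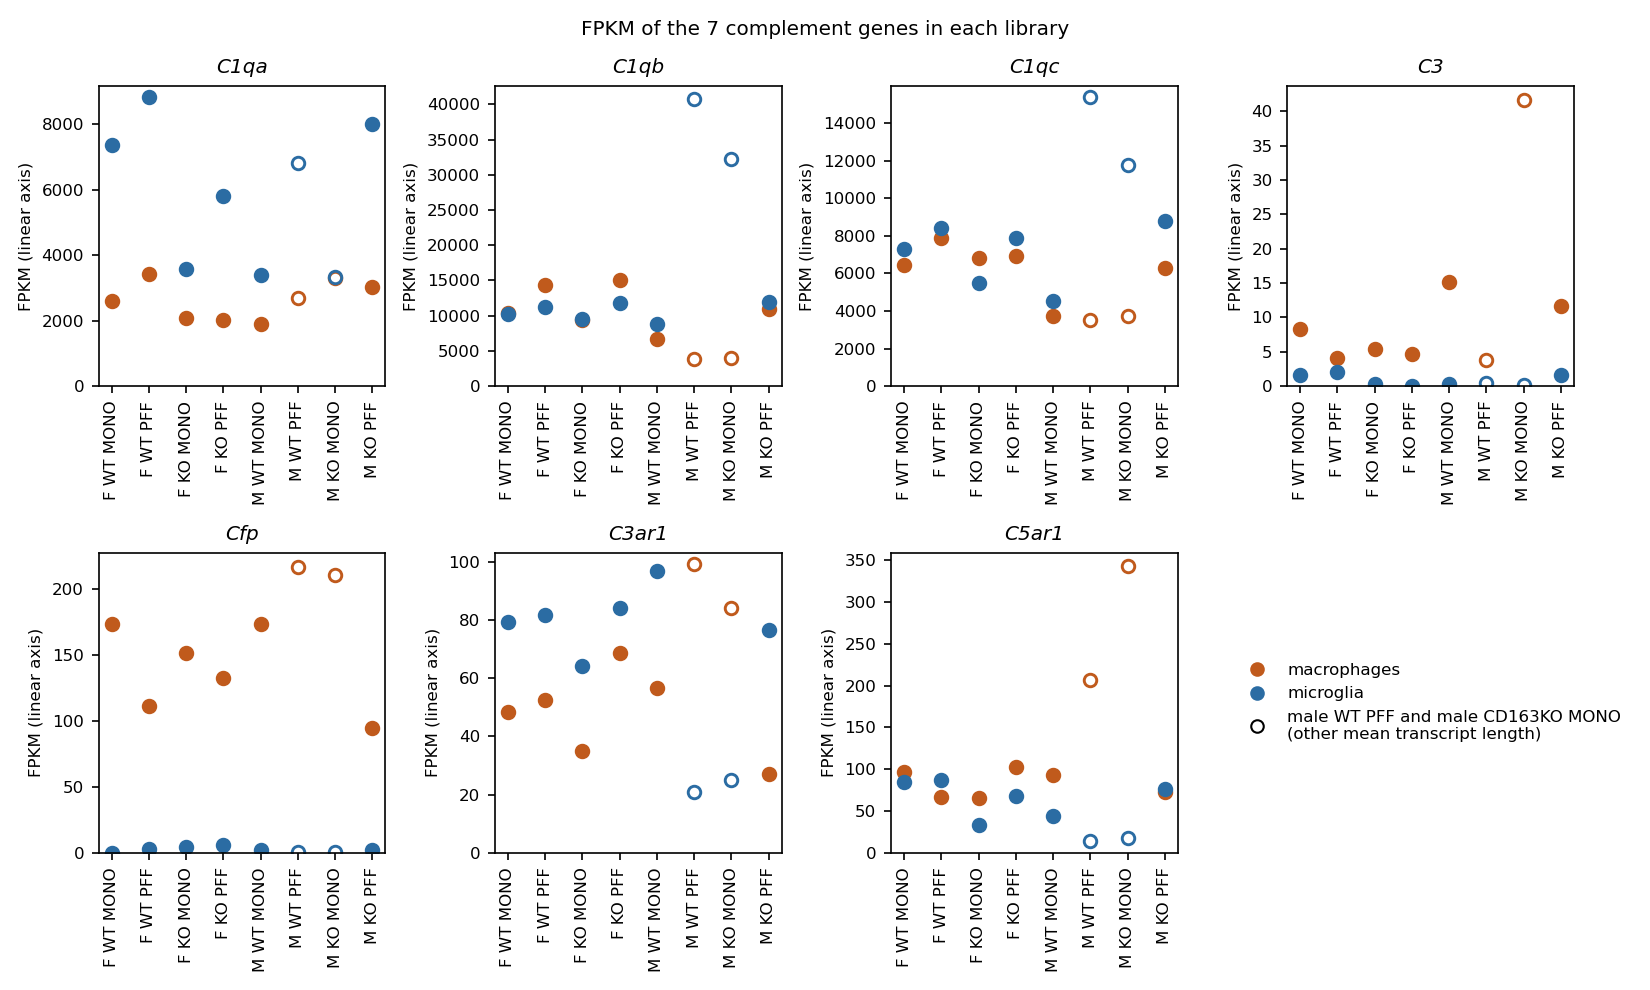
FPKM of the 7 genes (linear axes from 0) in each of the 16 libraries, by combination of sex (F, M), genotype and treatment. Open points are the libraries of male WT PFF and male CD163KO MONO, and Cfp and C3 are the genes whose 8 microglia values all lie below the 8 macrophage values.

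The proportion of the chains differed widely between libraries, although the transcripts of C1qa, C1qb and C1qc are of similar length (1082, 1062 and 1063 bases). In the 6 macrophage libraries that did not stand apart, C1qa made up 8.42% to 15.3% of the summed C1q FPKM, and in the 6 such microglia libraries 19.2% to 30.9%. The libraries that stood apart lay on the other side: 26.6% (male WT PFF) and 29.8% (male CD163KO MONO) in macrophages, and 10.8% and 7.01% in microglia. The share of C1qa was thus high in the libraries with a long mean transcript length and low in those with a short one, whichever the population. The share of C1qb ran the other way, from 36.5% in male CD163KO MONO macrophages to 68.2% in microglia of the same combination. C1qc was steadier, at 24.4% to 37.4% over all 16 libraries. The part of the transcript length profile in these proportions was not tested.

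**Figure D2:**
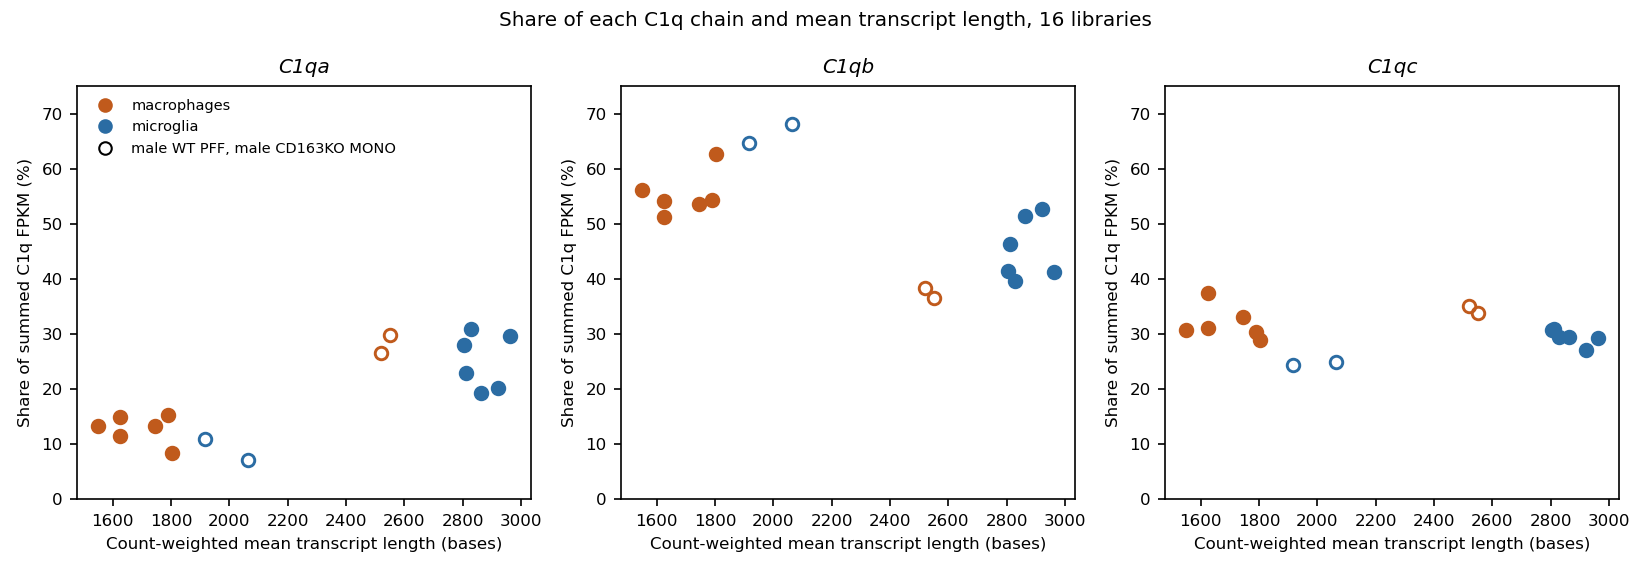
Share of each C1q chain in the summed C1q FPKM (%) against the mean length of the transcripts of a library, weighted by counts (bases), for 16 libraries. Open points are male WT PFF and male CD163KO MONO, which lie near the opposite population for C1qa (7.01% to 10.8% in microglia, 26.6% to 29.8% in macrophages).

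Within a library a ratio of chains does not depend on depth. Over the 7 pairs of macrophages and microglia from the same combination, the log2 ratio of C1qa to C1qc was -0.39 on average in microglia and -1.21 in macrophages. The difference was 0.82 ± 0.76 (SD, n = 7 pairs) and positive in 6 of 7 pairs, with p = 0.0469 by the exact two-sided permutation test and 0.141 after Benjamini-Hochberg adjustment over the 3 ratios. The ratio of C1qa to C1qb differed by 0.79 ± 1.36 (exact permutation p = 0.188, adjusted p = 0.281), and that of C1qc to C1qb by -0.03 ± 0.63 (exact permutation p = 0.938, adjusted p = 0.938). The smallest p that 7 pairs allow is 0.0156. No ratio passed the threshold of 0.05 after adjustment. The male WT PFF pair was the pair with a negative difference for C1qa against both other chains, and it was left out after its values were seen. Without it, C1qa was higher relative to both other chains in microglia in 6 of 6 pairs. The differences were 1.27 ± 0.56 against C1qb and 1.09 ± 0.30 against C1qc (exact permutation p = 0.0312 for each, the smallest possible with 6 pairs, adjusted p = 0.0469). That all 6 pairs agreed, and hence the p, was fixed by this choice, so no conclusion is drawn from these p-values. With the excluded male CD163KO MONO pair added, the differences were smaller, at 0.32 ± 1.83 against C1qb and 0.52 ± 1.12 against C1qc, each positive in 6 of 8 pairs (exact permutation p = 0.625 and 0.219, adjusted p = 0.625 for both).

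Whether C1q was higher in microglia or in macrophages depended on how the values were fitted. With edgeR's quasi-likelihood test and TMM scaling, C1qa differed by -0.25 ± 0.51 (log2, microglia minus macrophages, SE, adjusted p = 0.775), C1qb by -1.42 ± 0.87 (adjusted p = 0.284) and C1qc by -1.27 ± 0.71 (adjusted p = 0.245). None of the 3 passed, and with RLE size factors in place of TMM they were -0.18, -1.36 and -1.20. Without the male WT PFF libraries, all 7 genes were lower in microglia, with C1qa at -0.65 (edgeR adjusted p = 0.0475), C1qb at -1.92 (0.000243) and C1qc at -1.74 (0.00023), beside 19.2% of all genes called lower and 16.5% called higher. On the FPKM as deposited, tested with limma on log2(FPKM + 1), C1qa was instead higher in microglia by 1.25 (adjusted p = 9.19e-05), and C1qb (0.46) and C1qc (0.43) did not pass, beside 42.0% of all genes called higher and 5.08% called lower. With the mean transcript length as a covariate in edgeR, the chains were higher by 1.78, 2.64 and 1.90 (adjusted p = 0.000579, 0.000235 and 0.00054), beside 27.5% of all genes called higher and 11.2% called lower. Microglia had the longer mean transcript length in each pair of this fit except male WT PFF. Length and population were therefore told apart mainly by that pair, and the values with the covariate depend on it. The median difference of all genes was 0.37 in the first of these fits, 0.19 without male WT PFF, 0.89 on FPKM and 1.59 with the covariate. These data therefore gave no single direction for C1q between the populations.

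**Figure D3:**
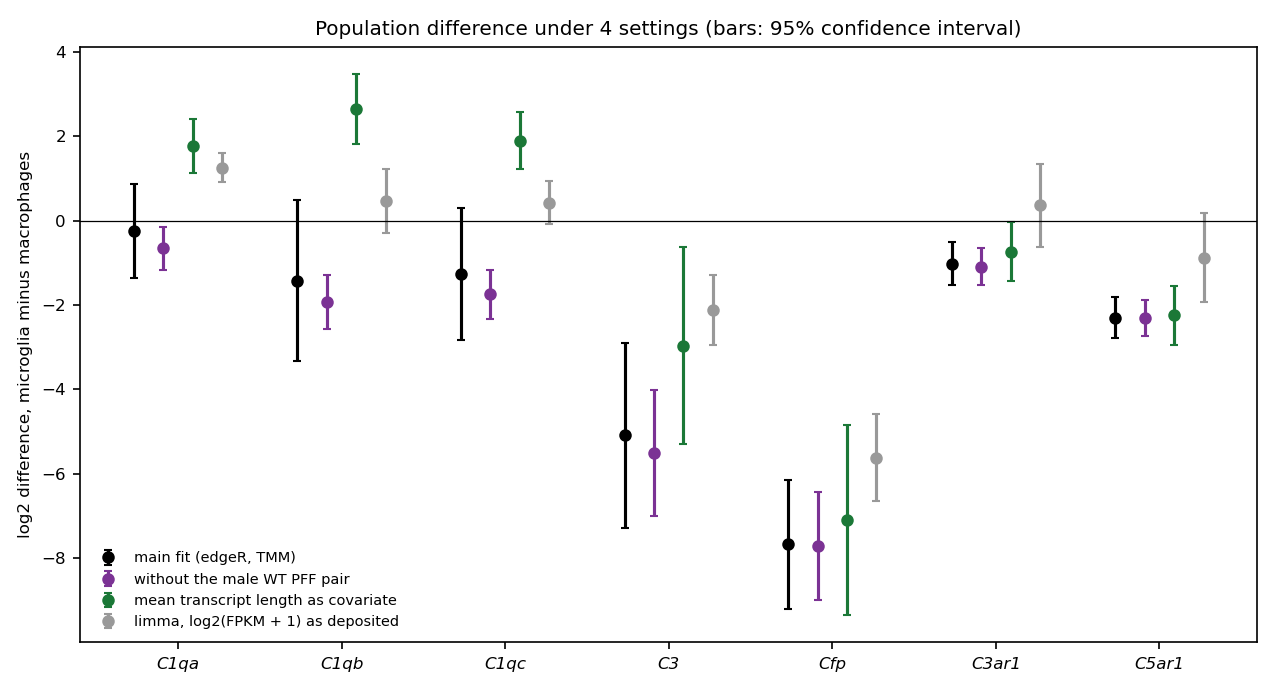
Difference between microglia and macrophages (log2, y axis) for the 7 genes under 4 settings, with 95% confidence intervals. C3 and Cfp lie below 0 in each setting, C1qa lies on both sides of 0, and C3ar1 is above 0 only on the deposited FPKM.

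C3 and properdin separated the populations under every setting. The lines below show the 250 bases before their starts, marked as for C1q, because these were the members with no overlap between populations. C3 (chr17:57203967-57228136, window chr17:57228137-57228386) and Cfp (chrX:20925454-20931555, window chrX:20931556-20931805) are also read on the minus strand.
C3: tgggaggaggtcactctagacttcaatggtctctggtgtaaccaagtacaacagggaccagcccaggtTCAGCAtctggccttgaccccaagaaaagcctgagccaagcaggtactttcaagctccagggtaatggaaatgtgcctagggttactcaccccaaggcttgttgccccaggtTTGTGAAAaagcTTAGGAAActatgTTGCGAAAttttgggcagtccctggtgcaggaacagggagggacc
Cfp: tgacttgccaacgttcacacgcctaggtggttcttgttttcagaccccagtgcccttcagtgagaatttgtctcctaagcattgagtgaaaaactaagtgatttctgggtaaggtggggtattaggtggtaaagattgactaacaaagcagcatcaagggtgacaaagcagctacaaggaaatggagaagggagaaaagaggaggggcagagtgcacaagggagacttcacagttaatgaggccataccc
The C3 window held TTNCNNAA matches at 3 positions, beginning 70, 58 and 45 bases before the start, the last of them on both strands. Of all windows, 2.61% held 3 or more such positions. The C3 window also held 1 TGCTGA match, and the Cfp window held none of the 5 motifs.

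Cfp was the gene of the 7 with the widest gap. Its FPKM in the 8 macrophage libraries ranged from 94.7 to 217 (median 162), and in the 8 microglia libraries from 0 to 5.86 (median 2.11). Female WT MONO microglia had 0 counts, which allows up to 3.69 counts (upper limit of the exact 95% Poisson interval, counting error only), and the lowest other values were 11 counts in male CD163KO MONO and 17 in male WT PFF. The edgeR difference was -7.67 ± 0.70 (log2, SE, adjusted p = 2.11e-05). Over 17 settings it ranged from -7.96 to -4.37 and passed in each.

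C3 was low in both populations and lower in microglia. Its FPKM ranged from 3.79 to 41.6 in macrophages (median 6.83) and from 0 to 2.05 in microglia (median 0.44). The highest value belonged to male CD163KO MONO macrophages, and without that library the macrophage values ended at 15.1. Female CD163KO PFF microglia had 0 counts of C3, and male WT MONO microglia had 11 (exact 95% Poisson interval 5.49 to 19.7). The edgeR difference was -5.09 ± 1.00 (adjusted p = 0.00385), between -5.52 and -1.03 over the 17 settings, and it passed in each. For Cfp and C3 all 8 microglia libraries lay below all 8 macrophage libraries, which 2.16% of 13430 genes did, while 4.31% lay above. The neutrophil and border-associated markers given above moved with this difference, as did 7 monocyte markers (summed FPKM 356 to 3035 in macrophages and 7.83 to 80.3 in microglia), 5 dendritic cell markers (597 to 1627 and 1.51 to 8.60) and 10 NK and T cell markers (45.5 to 212 and 0.27 to 5.91), and their part in it was not tested. In such bulk samples, fewer cells of a type and less RNA per cell cannot be told apart.

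Among the macrophage libraries themselves, female WT PFF had the lowest neutrophil markers by sum (22113) and by median FPKM (69.0), with a Cfp of 111. Male CD163KO MONO had the highest median (1270) with a Cfp of 210.5. Male CD163KO PFF had the highest sum (134489, median 445) and the lowest Cfp (94.7). Whether Cfp followed these markers was not tested. For C3, male CD163KO MONO macrophages combined the highest C3 (41.6) with the highest sum of border-associated (4671) and of the 7 monocyte markers (3035). Male WT PFF macrophages had the lowest C3 (3.79) with sums of 4189 and 1606 for these lists. Whether C3 followed these markers was not tested.

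The receptors were expressed in both populations. C3ar1 (chr6:122847140-122856157) had an FPKM between 27.0 and 99.4 in macrophages (median 54.6) and between 20.8 and 97.1 in microglia (median 78.0). The lowest microglia values were those of male WT PFF (20.8) and male CD163KO MONO (25.1), against 64.4 to 97.1 in the other 6. C5ar1 (chr7:16246743-16259540) had an FPKM between 65.9 and 343 in macrophages (median 94.7) and between 14.1 and 86.9 in microglia (median 56.1). Here male CD163KO MONO (343) and male WT PFF (207) were the highest macrophage libraries, and the same combinations were the lowest in microglia (17.1 and 14.1). Both receptors overlapped between populations.

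In edgeR, C5ar1 was lower in microglia by -2.30 ± 0.22 (log2, SE, adjusted p = 2.91e-05) and C3ar1 by -1.02 ± 0.23 (adjusted p = 0.00928). With Cfp and C3 this made 4 of 7 genes called, all lower in microglia, where 18.2% of 13704 genes were called, 11.6% as lower and 6.64% as higher. C5ar1 was lower in all 17 settings and passed in 14, the exceptions being the 3 fits on FPKM (-0.88 and adjusted p = 0.153 with a pseudocount of 1). C3ar1 passed in 12 of 17 settings and had the opposite sign on FPKM (0.36, adjusted p = 0.51). The ratio of the receptors within a library does not depend on depth, but their transcripts differ in length, with 4299 bases for C3ar1. The FPKM of C5ar1 was 1.28 to 4.07 times that of C3ar1 in the 8 macrophage libraries (median 1.95) and 0.453 to 1.07 times in the 8 microglia libraries (median 0.744), so the populations did not overlap in this ratio. The ratio was chosen after its values were seen and was not tested, and the share of other gene ratios without overlap was not computed. The part of the transcript length profile in it was not tested either. The reads of C5ar1 were divided by RSEM between 2 RefSeq transcripts, of 2540 and 2481 bases, and the sum was used.

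The other genes of the pathway were taken from a list of 52 complement genes, 49 of them with a row in the tables. Of 30 that could be tested between populations with edgeR, 3 were higher and 12 were lower in microglia, beside 6.64% and 11.6% of all genes. Their median difference was -1.54 against 0.37 over all genes. All 5 early components tested were lower, with a median of -6.46. Next to C3 and Cfp these were C4b, which forms the classical convertase with C2 (mean FPKM 27.5 ± 17.3, SD, in 8 macrophage libraries and 2.67 ± 1.72 in 8 microglia libraries), C2 itself (12.4 ± 17.9 and 0.636 ± 1.10) and Cfb. Of the initiators other than C1q, ficolin A (Fcna) had a mean FPKM of 102 ± 40.9 in macrophages and 1.49 ± 1.44 in microglia, and Fcnb 28.4 ± 27.3 and 3.61 ± 2.61. The lectin protease gene Masp1 was higher in microglia, at 2.44 ± 1.80 against 0.0675 ± 0.168.

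Receptors and regulators were divided. Itgam, the alpha chain of complement receptor 3, had a mean FPKM of 145 ± 52.6 in microglia and 31.2 ± 33.7 in macrophages, and edgeR called it higher in microglia by 1.79 (adjusted p = 0.0001). The second C5a receptor, C5ar2, was also higher, with an FPKM of 23.8 to 109.5 in microglia and 4.36 to 24.8 in macrophages and a difference of 0.76 (adjusted p = 0.0479). That call depended on single libraries, since C5ar2 passed in 2 of 7 fits with 1 pair left out (0.62 to 0.90, adjusted p = 0.0225 to 0.132) and in 12 of 17 settings, whereas Itgam passed in all 17. C5ar2 was positive and C5ar1 negative in each of the 17 settings, where the median difference of all genes was also positive (0.165 to 1.59). Cd93 (3.84 to 21.3 in macrophages, 0.04 to 0.91 in microglia), Vsig4 and the regulator Cd55 (1.08 to 42.9 and 0 to 0.93) were lower in microglia. Itgb2, Cr1l and Clu, with mean FPKM of 195, 67.7 and 28.7 in microglia and 155, 29.7 and 15.3 in macrophages, did not pass in edgeR. On the FPKM as deposited, 7 of 31 list genes were called higher and 10 lower, beside 42.0% and 5.08% of all genes, and Cr1l and Clu were then among those higher. Masp1, Cfb and Vsig4 were named after their values were seen, to complete the counts, and with 1 pair left out they passed in 5, 2 and 7 of 7 fits.

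**Figure D4:**
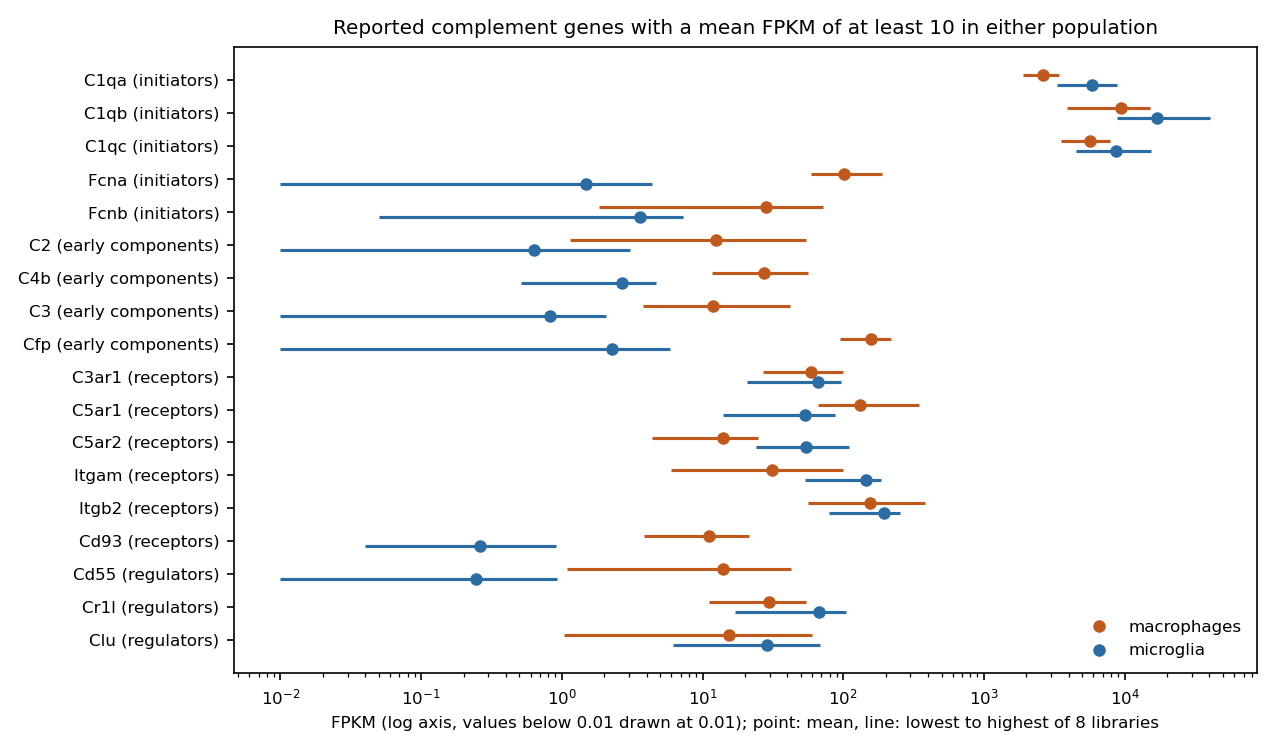
FPKM (log axis) of the reported complement genes with a mean of at least 10 in either population, with the mean as a point and a line from the lowest to the highest of 8 libraries. The 3 C1q chains are the highest in both populations, and among the genes whose lines do not meet are Fcna, C4b, Cd93, C3 and Cfp.

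Next, PFF was compared with MONO, to see whether fibrils moved complement expression. None of the 7 genes passed in macrophages or in microglia, in any of 15 settings. In the edgeR fits 0 of 11988 genes (0.0%) were called in macrophages and 0 of 12725 (0.0%) in microglia, with 125 and 765 genes at an unadjusted p under 0.05, and DESeq2 called 8 and 26. The values for C1qa in microglia were nevertheless higher with PFF within each labelled sex and genotype, where the MONO library of the CD163KO females is the one with Y-linked counts. Its FPKM was 7354 with MONO and 8822 with PFF in WT females, 3575 and 5816 in CD163KO females, 3391 and 6826 in WT males, and 3319 and 8012 in CD163KO males. The 3 pairs that the study analysed gave a mean log2 ratio of 0.66 ± 0.38 (SD), and 4.24% of 12637 genes were higher with PFF in all 3. The groups of MONO (3391 to 7354) and PFF (5816 to 8822) overlapped. The edgeR difference was 1.38 (95% confidence interval -0.78 to 3.55, adjusted p = 0.802), and on log2(FPKM + 1) the limma difference was 0.81 (0.30 to 1.33, unadjusted p = 0.00204, adjusted p = 0.974).

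The other chains followed in microglia, with C1qb and C1qc also higher with PFF in all 3 analysed pairs. The FPKM of C1qb was 10268 and 11292 (MONO and PFF) in WT females, 9546 and 11791 in CD163KO females, and 8862 and 40767 in WT males, whereas the excluded MONO library of CD163KO males had 32280 against 11879 with PFF. C1qb came nearest to passing, in the limma fit with a pseudocount of 5 (0.74, adjusted p = 0.0828). In edgeR the differences were 1.39 (-2.25 to 5.02, adjusted p = 0.903) for C1qb and 1.43 (-1.32 to 4.19, adjusted p = 0.843) for C1qc, and without male WT PFF they were 0.31 and 0.60 (adjusted p = 0.77 and 0.656). C1qa was 0.89 (0.19 to 1.59, adjusted p = 0.619) in that fit. Without the library labelled female CD163KO MONO they rose to 1.84, 2.92 and 2.46 for C1qa, C1qb and C1qc, and without male WT MONO they were 0.56, 0.29 and 0.45. With each library left out in turn they lay between 0.56 and 2.01, 0.29 and 2.92, and 0.45 and 2.46, all positive and none called. No member was lower with PFF in all 3 pairs in microglia, where 22.1% of genes were.

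In macrophages the differences of the chains between PFF and MONO were 0.89 (C1qa), 0.84 (C1qb) and 0.69 (C1qc), each with an interval that included 0. Without the female WT PFF library they were -0.29, -0.57 and -0.55, so 1 library set their direction. C3 was lower with PFF in all 3 analysed macrophage pairs on FPKM, as were 14.8% of 11190 genes: 8.32 and 4.05 in WT females, 5.34 and 4.65 in CD163KO females, and 15.1 and 3.79 in WT males. The summed neutrophil markers were lower with PFF in the same pairs (120958 and 22113, 98601 and 32858, 118330 and 71088), as were the monocyte markers (1501 and 356, 767 and 575, 1803 and 1606). In WT males the median FPKM of these lists went the other way, from 344 to 759 for neutrophil and from 149 to 189 for monocyte markers. Other lists did not fall in every pair. In CD163KO females the summed border-associated markers rose from 2843 to 3800 and the dendritic cell markers from 817 to 1350. In WT males the NK and T cell markers rose from 198 to 212. Each of these 3 lists fell in the remaining analysed pairs. The part of all these cells in C3 was not tested. The edgeR difference of C3 was -0.34 (-1.98 to 1.29), and without male WT PFF it was 0.10. C3ar1 was higher with PFF in the same 3 pairs, as were 2.18% of genes, with 48.4 and 52.4, 34.8 and 68.6, and 56.8 and 99.4, while the excluded MONO library of CD163KO males had 84.3 against 27.0 with PFF. Its edgeR difference was 0.64 (-0.10 to 1.39, adjusted p = 1). C5ar1 and Cfp had differences of 0.52 and -0.019 in macrophages and 0.72 and 0.92 in microglia, where C3 had 0.98 and C3ar1 0.17, all with intervals that included 0.

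**Figure D5:**
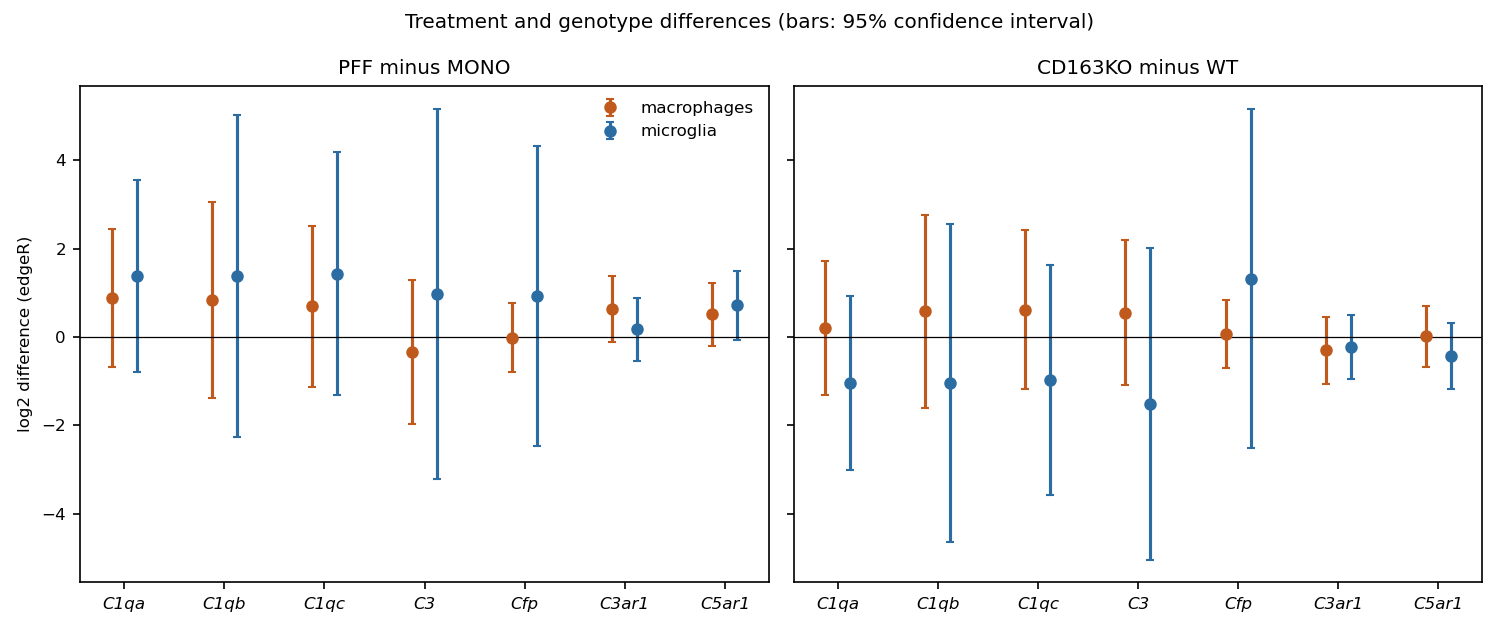
Differences between PFF and MONO and between CD163KO and WT (log2, edgeR, 7 libraries of each population), with 95% confidence intervals. Every interval includes 0, and those of C3ar1 and C5ar1 are the narrowest in microglia.

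CD163KO was compared with WT to see whether complement expression changed without CD163, the haemoglobin scavenger receptor. None of the 7 genes passed in either population in any setting. Cd163 itself was the only one of 11988 genes called in macrophages (0.00834%), and 0 of 12725 were called in microglia (0.0%), with 79 and 166 genes at an unadjusted p under 0.05. DESeq2 called 2 and 3 genes. In macrophages the edgeR differences (CD163KO minus WT) were 0.21, 0.59 and 0.62 for C1qa, C1qb and C1qc, 0.56 for C3, -0.30 for C3ar1, 0.016 for C5ar1 and 0.074 for Cfp. In microglia they were -1.03, -1.04 and -0.97 for C1qa, C1qb and C1qc, -1.51 for C3, -0.22 for C3ar1, -0.43 for C5ar1 and 1.33 for Cfp. The intervals of all 14 differences included 0. Without the library labelled female CD163KO MONO microglia, the one with Y-linked counts, C1qb was -2.56, C1qc -1.98, C5ar1 -0.07 and Cfp 0.69. Without male WT PFF, C1qa was -0.41, C1qb 0.069 and C1qc -0.015. The most precise, C5ar1 in macrophages, was 0.02 (-0.68 to 0.71).

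By matched pairs, C1qc in microglia was lower in CD163KO in all 3 analysed pairs, as were 2.26% of 12637 genes. Its FPKM was 7288 (WT) and 5472 (CD163KO) in MONO females, 8412 and 7869 in PFF females, and 15379 and 8774 in PFF males, whereas in MONO males, where the CD163KO library was excluded, it was 4549 and 11752. Cfp in microglia was higher in CD163KO in all 3 analysed pairs, as were 22.5% of genes, at 0 and 4.27, 2.88 and 5.86, and 0.57 and 2.31. In macrophages 0 of 7 genes had the same direction in all 3 pairs, where 8.01% of genes were higher and 5.28% lower in each. The WT PFF male library takes part in the third pair of each. The first pair of each holds the library with Y-linked counts, so its match by sex is in doubt.

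The difference between the populations in these effects was tested with an interaction term. For treatment, 0 of 13704 genes were called (0.0%, 122 at an unadjusted p under 0.05, 44 by DESeq2), and for genotype 0 (0.0%, 84 and 48). None of the 7 genes passed in any of 15 settings. The treatment terms (microglia minus macrophages) were 0.79, 0.57 and 0.93 for C1qa, C1qb and C1qc, 1.16 for C3, 1.31 for Cfp, -0.47 for C3ar1 and 0.25 for C5ar1. The genotype terms were -1.04, -1.38 and -1.36 for the chains in the same order, -2.95 for C3, 1.42 for Cfp, 0.068 for C3ar1 and -0.44 for C5ar1. All 14 intervals included 0. The other genes of the complement list likewise gave 0 calls, among 27 tested for treatment and genotype in each population and 30 for the interactions.

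The genes that varied most like each member were sought among 2201 genes that reached 10 FPKM in every library of at least 1 population, over 16 libraries of log2 CPM (TMM) after the mean of each population was subtracted. For C1q, as the mean of its chains, these included Itm2b (r = 0.96) and the lysosomal protease gene Ctss (0.96). C1qb and C1qc varied together (r = 0.98), more so than C1qa with C1qc (0.90) or with C1qb (0.84). For C3ar1 they were Cd83 (0.89), P2rx4 (0.80) and Ctsc (0.79), and for C5ar1 Ssbp4 (0.92), Rab3il1 (0.89) and Itm2c (0.87). For Cfp they were Il2rg (0.81), Lrg1 (0.74) and Slpi (0.64), and for C3 Ifi211 (0.78), the neutrophil protease gene Elane (0.76) and Cdk4 (0.75). These values are descriptions over points that share library preparation and scaling, and the libraries that stood apart enter all of them.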

How the data were processed

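RNA from sorted macrophages and microglia was sequenced with SMART-seq2. The authors mapped reads with Bowtie2 and estimated expression with RSEM, and the submitters' processing notes name the build mm10. Estimated counts were deposited without normalization, and FPKM were deposited scaled to transcript length and assigned reads. Versions are not given in the sources used here. The batch correction and removal of outliers in the study were not repeated.

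Transcripts were mapped to symbols with the RefSeq table of GRCm38.p6 (27632 of 27787, 99.4%) and summed per gene, with transcripts not listed taken as 0. Counts were rounded to whole numbers and tested with edgeR 4.0.16 (quasi-likelihood, TMM, filterByExpr) in R 4.3.3, with Benjamini-Hochberg adjustment over all genes and calls at 0.05. Populations were compared over 14 libraries with the combination of sex, genotype and treatment as a block, and treatment and genotype over 7 libraries per population with additive terms for the other factors. Ratios of C1q chains were tested with an exact permutation test over pairs. Alternatives were DESeq2 1.42.0, RLE size factors, no filter, limma 3.58.1 on log2(FPKM + 1), + 0.1 and + 5, other sets of libraries and no block. Leaving out male WT PFF and the transcript length covariate were chosen after seeing the data. Scripts were tested on simulated data. Per-library intervals are exact 95% Poisson intervals. Depth was 12170686 to 21433841 counts in macrophages and 8648751 to 18768238 in microglia, and PCR copies are counted as separate reads.

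The 7 genes, the complement and marker lists and the alternatives were chosen with earlier results of these data known. All 7 genes are named in each comparison, other list genes where called for treatment or genotype or where the mean FPKM was at least 10 in a population, and 3 genes by likeness to each member, except for genes that are not reported here. Of the 7 genes, 6 had a RefSeq promoter entry. Python 3.11.15 with pandas 2.3.3 and scipy 1.17.1 was used.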

Additional observations from a re-analysis of the deposited data

How the results depend on the processing

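The 16 libraries hold 1 library per combination, so sex, genotype and treatment effects share their replicates. C3 and Cfp each had 0 counts in 1 microglia library. Fits that 2 settings share are counted once here. C3 and Cfp were lower in microglia under all 17 distinct settings. Of 112 alternative values for the 7 genes between populations, 88 kept their direction and side of the threshold, 5 no longer passed, 3 newly passed and 16 had the other sign. Of 392 alternative values for treatment and genotype and 196 for interactions, 44 and 20 had the other sign, and none of these passed. Macrophages and microglia of a combination were compared as pairs, and without this block 2979 genes were called between populations. The cause of the changes below was not tested.

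Between populations, 2499 genes were called, and 4716 with DESeq2, 6516, 6276 and 5883 with limma on FPKM (pseudocounts 0.1, 1 and 5), 5299 with the length covariate, 4869 without male WT PFF, and 1767 to 4869 when each pair was left out. For treatment in macrophages 0 genes were called, and 8 with DESeq2, 1, 2 and 1 with limma (0.1, 1 and 5), 4 without male WT PFF and 0 to 4 with each library left out. In microglia 0 were called, and 26 with DESeq2, 1 with limma (1 and 5), 11 with no filter, 1 without male WT PFF and 0 to 1 with each left out. For genotype in macrophages 1 was called, and 2 with DESeq2, 5, 4 and 3 with limma (0.1, 1 and 5), 5 without male WT PFF and 0 to 5 with each left out. In microglia 0 were called, and 3 with DESeq2, 1 with limma (5) and 19 with no filter. For each interaction 0 were called, and 44 (treatment) and 48 (genotype) with DESeq2, 1 without male WT PFF and 0 to 1 with each pair left out.

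Among values of single genes, the population difference of C1qa turned to 0.12 with no filter, 1.25 with each limma fit and 1.78 with the length covariate. That of C1qb turned to 0.46 with limma (each pseudocount) and 2.64 with the covariate, that of C1qc to 0.43 and 1.90, and that of C3ar1 to 0.36, 0.37 and 0.34 with limma (1, 0.1 and 5). Without male WT PFF the chain ratios were 1.27 (C1qa to C1qb), 1.09 (C1qa to C1qc) and 0.18 (C1qc to C1qb), and the last was 0.024 without the female CD163KO MONO pair. With each pair left out they ranged from 0.61 to 1.27, 0.74 to 1.09 and -0.12 to 0.18.

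The values that follow changed sign without passing in any fit. For treatment in macrophages, C3 was 0.10 without male WT PFF and -1.62 to 0.10 with each library left out, and Cfp was 0.094 with male CD163KO MONO, 0.057 without male WT PFF and -0.45 to 0.14 with each left out. The ranges with each left out were -0.29 to 1.18 for C1qa, -0.57 to 1.24 for C1qb and -0.55 to 0.97 for C1qc. For treatment in microglia, C3ar1 was -0.44, -0.45 and -0.40 with limma (1, 0.1 and 5), and C3 ranged from -0.89 to 2.19 with each left out. For genotype in macrophages, limma (1, 0.1 and 5) gave -0.23 for C1qa each time, -0.41, -0.41 and -0.40 for C5ar1, and -0.34, -0.34 and -0.33 for Cfp. Without male WT PFF these were -0.13, -0.0082 and -0.020, C3 was -0.014, and with male CD163KO MONO Cfp was -0.042. With each left out, the ranges were -0.77 to 1.08 for C1qa, -0.37 to 1.83 for C1qb, -0.33 to 1.62 for C1qc, -0.46 to 1.66 for C3, -0.12 to 0.15 for C5ar1 and -0.14 to 0.47 for Cfp. For genotype in microglia, limma (1, 0.1 and 5) gave 0.31, 0.32 and 0.27 for C3ar1 and 0.095, 0.10 and 0.062 for C5ar1, and C1qb was 0.069 without male WT PFF and -2.56 to 0.069 with each left out. For the treatment interaction, values without male WT PFF were -0.077 (C1qa), -0.86 (C1qb) and -0.26 (C1qc), with ranges up to 2.26, 2.95 and 2.81 with each pair left out, and C1qb was -0.49 with male CD163KO MONO. C5ar1 was -0.14 with limma (1 and 0.1), -0.11 (5), and -0.21 without the female CD163KO MONO pair, with a range up to 0.49, and C3 ranged from -1.95 to 3.07. For the genotype interaction, C3ar1 was -0.071 with male CD163KO MONO and ranged from -0.25 to 0.23, C5ar1 was 0.50, 0.52 and 0.46 with limma (1, 0.1 and 5) and 0.013 without the female CD163KO MONO pair, with a range from -0.70, and C1qb ranged from -3.81 to 0.23.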
